A study of Mus musculus with 4 samples.

Results

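Granulocyte-like cells made up 268 of 41533 cells in 4 single-cell libraries of cardiac cells sorted for an EGFP reporter driven by the Csf1r promoter, with cells positive for the neutrophil surface protein Ly6G excluded. They were chosen by their own counts. A cell qualified with at least 10 unique molecular identifiers (UMIs, each standing for 1 captured transcript) of S100a8 and S100a9 together, and with a UMI in at least 2 of 6 granulocyte genes, namely Retnlg, G0s2, Cxcr2, Hdc, Il1r2 and Siglecf. All mice carried the same CSF1R-EGFP+ reporter on a C57Bl6J background and were 12 to 16 weeks old. The baseline group was 1 library of 3 pooled control hearts, and the infarct group held 3 libraries, each from a single heart taken 7 days after ligation of the left coronary artery. The remote, non-infarcted myocardium was cut away before digestion. The reporter is known to be active in monocytes and macrophages and also in part of the granulocytes, so the sort did not define a single lineage. Baseline had no second library, so differences between baseline and infarct are described and were not tested. Deposited libraries held 71093963 to 97944428 UMIs in 10144 to 10804 cells.

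Neutrophils are short-lived granulocytes that leave the bone marrow, enter injured myocardium early and release proteases, chemokines and the S100A8/S100A9 alarmin, a calcium-binding heterodimer stored in bulk in their cytosol. Circulating neutrophils carry the chemokine receptor CXCR2 and the G-CSF receptor (Csf3r). In inflamed or injured tissue, neutrophils that display the sialic acid-binding lectin Siglec-F, best known as a surface marker of eosinophils, have been described.

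The transcripts that set the cells apart were those of granulocytes. The 15 genes outside the rule with the highest ratio to all other cells are given as a description, because the cells were selected on related genes. They included Lcn2, the iron-withholding granule protein lipocalin 2, at 921 ± 610 CPM (CPM, UMIs of the gene per 1000000 UMIs summed in the library; mean ± SD over the 4 libraries, which mix both groups) against 2.35 ± 1.76 CPM in all other cells. Trem1, an activating receptor of neutrophils and monocytes, stood at 472 ± 162 against 11.0 ± 2.92 CPM, and Mmp9, the gelatinase of tertiary granules, at 519 ± 314 against 14.6 ± 15.3 CPM. Csf3r, the G-CSF receptor, reached 923 ± 593 against 44.1 ± 6.97 CPM, and Csf1, the ligand of the receptor whose promoter drives the reporter, 200 ± 47.2 against 3.47 ± 0.72 CPM. Pglyrp1 (a bactericidal granule protein), Ptgs2 (the prostaglandin synthase COX-2), Acod1 (the enzyme that makes itaconate), Hcar2 (a receptor for nicotinic acid and hydroxybutyrate), Slc7a11 (the cystine transporter), Mxd1 (a MYC antagonist of mature neutrophils) and Cd24a (a surface glycoprotein of granulocytes) were in the same list. So were Wfdc21 and the stefin A genes Stfa2l1 and Gm5483, whose near-identical copies make their counts uncertain. In monocytes, defined by Ly6c2 without C1q, the lowest and highest of these 15 means were 0 CPM for Stfa2l1 and Gm5483 and 79.3 ± 52.5 CPM for Ptgs2, so each stood below its level in the granulocyte-like cells.

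Ly6g, the precursor genes Camp, Ngp and Ltf, and most listed markers of other granulocytes were scarce. Ly6g, which encodes the antigen used for exclusion, was found in 1 of 70 baseline and 2 of 198 infarct cells, and surface protein was not measured. Epx and Prg2, the granule proteins that define eosinophils, were at 0 in every library, and no granulocyte-like cell carried 2 of the eosinophil markers Epx, Prg2, Ccr3, Il5ra and Ear6. Of the rest of that list, Ear1 and Alox15 were at 0, and Ear2 was found in 2.86% of baseline and 2.53% of infarct cells. Cd24a went the other way, in 44.3% and 70.8%, against 5.81% of the other infarct cells. With it, the summed list stood at 261 CPM at baseline and at 466, 322 and 561 CPM in the infarcts. All other cells had 104 CPM at baseline and 43.5, 18.6 and 39.9 CPM in the infarcts. Of the secondary granule genes of late precursors, Camp was found in 1 infarct cell, Ngp in 1 baseline and 2 infarct cells, and Ltf in 1 baseline and 11 infarct cells. Cd177 and Itgb2l were also in few cells, but other genes of the granule list were not scarce. Lcn2 was found in 54.3% of baseline and 38.3% of infarct cells, Mmp9 in 87.1% and 49.4%, Wfdc21 in 51.4% and 15.0%, and Mmp8 in 38.6% and 10.2%. Mcpt8, Cpa3 and Fcer1a of basophils and mast cells were at 0. Csf1r itself had a UMI in 55.7% of baseline cells and in 36.9% ± 5.37 (SD, n = 3 libraries) of infarct cells, against 92.3% of all other infarct cells and 81.2% of infarct B cells, which should lack it.

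The cells held few UMIs. Their median UMI count was 2210 in the baseline library and 2573, 2793 and 3007 in infarct replicates 1, 2 and 3, against 6416.5 to 8568.5 in the other cells of the same libraries. They spanned 942 to 29841 UMIs, and 19 of them held 10000 UMIs or more. S100a8 and S100a9 together had a median of 128.5, 121, 126.5 and 105.5 UMIs per cell in the same order, or 5.96%, 4.84%, 5.36% and 3.29% of the UMIs of a cell. In 82 cells (30.6%) at least 3 UMIs came from C1qa, C1qb and C1qc, genes of macrophages, with 19 such cells at baseline and 11, 17 and 35 in the infarct libraries. No doublet caller was run. Counts of called genes and selected values are therefore also given for the 182 cells (50 at baseline, and 48, 31 and 53 in the infarcts) left after these cells, those with 2 endothelial markers and those with 10000 UMIs or more were removed, a choice made after seeing the data. The libraries shared 26 to 34 cell barcodes per pair, none of them between granulocyte-like cells.

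The threshold on S100a8 and S100a9 fell where few cells lay. There were 15 cells with 10 to 19 S100a8 and S100a9 UMIs inside it, and 7 cells with 5 to 9 UMIs and enough of the other genes just outside. A further 28 cells had 10 or more of these UMIs with 1 of the 6 genes, and 27 had none of the 6. Within the selection 57 cells had exactly 2 of the genes and 211 had 3 or more. A further 116 cells had at least 2 of the 6 genes but under 5 of these UMIs. The 268 cells held 85.7% of all S100a8 and S100a9 UMIs, which follows in part from their selection on these counts. Of 354 B cells 0 reached 10, but any cell that met the rule had been left out of the B cells beforehand. Neither value is a check of the threshold.

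Granulocyte-like cells were present at baseline and in each infarct. They formed 70 of 10238 baseline cells (0.684%, exact 95% binomial interval 0.533 to 0.863). The infarct libraries gave 62 of 10396 (0.596%), 48 of 10782 (0.445%) and 88 of 10117 (0.870%), with a mean of 0.637% ± 0.215 (SD, n = 3). The baseline share thus lay between the lowest and the highest infarct share. With every cell thinned to 1000 UMIs before selection it was 0.609% at baseline and 0.407%, 0.256% and 0.512% in the infarcts, all 3 below baseline. These are shares of reporter-positive, Ly6G-negative cells and not of cardiac tissue. Intervals here and below cover counting error only.

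**Figure D1:**
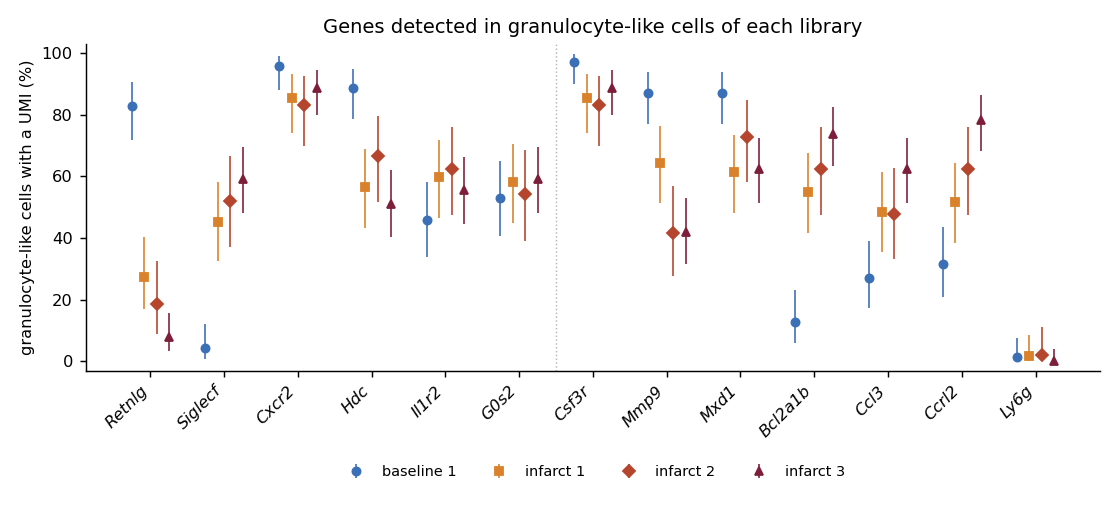
Share of granulocyte-like cells (y axis, percent) with at least 1 UMI of each gene (x axis), with 1 point per library, bars for the exact 95% binomial interval, and the genes of the rule left of the dotted line. The infarct points for Siglecf lie between 45.2% and 59.1% against 4.29% at baseline, and those for Retnlg between 7.95% and 27.4% against 82.9%.

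The 6 genes of the rule were spread unevenly over the groups. Siglecf, the sialic acid-binding lectin, had a UMI in 3 of 70 baseline cells (4.29%, interval 0.893 to 12.0). In the infarcts it was found in 28 of 62 (45.2%), 25 of 48 (52.1%) and 52 of 88 cells (59.1%), a mean of 52.1% ± 6.96. Retnlg, a resistin-like secreted protein of blood neutrophils, went the other way, with 58 of 70 baseline cells (82.9%, interval 72.0 to 90.8) and 17 of 62 (27.4%), 9 of 48 (18.8%) and 7 of 88 infarct cells (7.95%), a mean of 18.0% ± 9.75. Cxcr2 was found in 95.7% of baseline and 85.8% ± 2.67 of infarct cells, and Hdc, the histamine-forming enzyme, in 88.6% and 58.1% ± 7.89. G0s2, an inhibitor of triglyceride lipase, was found in 52.9% and 57.1% ± 2.60, and Il1r2, the decoy receptor for interleukin-1, in 45.7% and 59.3% ± 3.43. These shares partly reflect the rule, because each cell had to show 2 of the 6 genes.

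The contrast between Siglecf and Retnlg was present at equal depth and in the reduced set of cells. After each cell was thinned to 1000 UMIs, which left out 1 cell of infarct replicate 1 and 1 of replicate 2, Siglecf was found in 2.86% of baseline and 29.2% ± 5.47 of infarct cells, and Retnlg in 77.1% and 11.8% ± 5.28. In the 182 cells the shares were 4.0% and 53.3% ± 6.40 for Siglecf, and 84.0% and 15.9% ± 12.0 for Retnlg. In both settings the cells had been selected at full depth, by a rule that holds both genes. With every cell thinned before selection, the Siglecf shares were 1.69% and 33.3% ± 3.28. With Siglecf left out of the rule, and 2 of the 5 other genes required, they were 4.29% and 47.0% ± 6.70. Free RNA from lysed cells can place a UMI in any droplet. Among 229 infarct B cells, with a median of 10106 UMIs against 2842.5 in infarct granulocyte-like cells, 0 carried a Siglecf UMI and 0 a Retnlg UMI, which allows a share of up to 1.31% for each (3 counts of 229; the exact 95% interval reaches 1.60%). Siglecf was sparse where it occurred, with a median of 2 and a highest value of 9 UMIs among the 108 positive cells, 47 of which had 1. A cell without a Siglecf UMI may therefore hold Siglecf transcripts that were not sampled.

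Siglecf and Retnlg were also counted together in the same cells. Among cells with 2 of the 4 other rule genes, 53 of 66 at baseline had Retnlg alone, 2 had Siglecf alone, 1 had both and 10 had neither. In the infarcts 19 of 176 had Retnlg alone, 75 Siglecf alone, 11 both and 71 neither. On the scale of summed counts, Siglecf stood at 14.5 CPM at baseline (3 UMIs) and at 214, 333 and 313 CPM in the infarcts. Retnlg stood at 5527 CPM at baseline and at 1161, 2017 and 184 CPM. In such sums, fewer cells with a transcript and less of it per cell cannot be told apart.

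The promoters of S100a8, S100a9, Retnlg, Siglecf and Cxcr2, all genes of the rule, and of Slpi, described below, were searched for 2 motifs of myeloid transcription factors near the start sites. Only some of the matches are shown as short stretches, and none from Cxcr2. The 300 bases around each start (250 before, 50 after) were taken from RefSeq on GRCm38.p6, and all 6 genes matched. They were searched on both strands for GAGGAA, the core of PU.1 sites, and for TTNNGNAA, a form of the C/EBP site. A base could count towards both motifs, but no matches overlapped in these 6 windows. Capitals mark the match, and each line reads 5′ to 3′ on the strand of the gene.
S100a8, PU.1 core on the opposite strand, chr3:90669023-90669052, plus strand: gctggccaagctTTCCTCtataaaagcagc
S100a8, C/EBP, chr3:90668943-90668972, plus strand: catggacttggTTAGGAAAcagaggctgtg
S100a9, C/EBP on the opposite strand, chr3:90695833-90695862, minus strand: agggctgggaaTTTCACAAaacatcagagc
Retnlg, C/EBP, chr16:48872358-48872387, plus strand: agctTTCTGCAAggcattccaggcacctcc
Siglecf, PU.1 core on the opposite strand, chr7:43351264-43351293, plus strand: ggagggtgggtcTTCCTCatcgactttgcc
Siglecf, C/EBP, chr7:43351114-43351143, plus strand: ggttccagttgTTGGGGAAcccacatgaag
Slpi, C/EBP on the opposite strand, chr2:164356553-164356582, minus strand: tagtcttgggaTTTCACAAtgctcagggct

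The windows of S100a8 and Siglecf held both motifs, those of S100a9, Retnlg and Slpi only the C/EBP letters, and that of Cxcr2 only the PU.1 core. Of 32851 promoter windows of the same length, 28.3% held the PU.1 core and 40.7% the C/EBP letters, so both are common. A match says only that the letters are present.

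The infarct cells differed from the baseline cells in a broad set of genes. A gene was called when all 3 infarct libraries lay on the same side of baseline and their mean differed from it by at least 2-fold (1 CPM added to both). Of 3716 genes outside the rule with at least 50 CPM in the baseline or in the infarct mean, 716 were called higher (19.3%) and 526 lower (14.2%). In 37.6% of the genes all 3 infarct libraries lay above baseline by any size, and in 38% all 3 lay below. A gene under 50 CPM at baseline entered only through its infarct level, and one under 50 CPM in the infarcts only through baseline, so the direction of such a gene was fixed by the filter. These counts are descriptions, with 1 pool of hearts on the baseline side. The median log2 ratio over the tested genes was 0.0020, and it was -0.15 with TMM scaling, which gave 616 higher and 657 lower genes. Of the list genes named below, Ero1l and Lgals3 lost their call under that scaling. In the 182 cells 976 genes were higher, 585 of them shared with the 716, and 606 were lower, 369 of them shared with the 526.

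Transcripts of other cell types were present in the granulocyte-like cells. The summed macrophage markers (C1q genes, Apoe, Mrc1 and others, 10 genes) reached 10201 CPM in the baseline granulocyte-like cells and 9229, 35044 and 15221 CPM in infarct replicates 1, 2 and 3, and 23801 to 57444 CPM in the other cells. Infarct replicate 1 lay below baseline and replicate 2 had the highest sum. Cd68, C1qa and the other 8 were above 0 in every library. B cells of the same libraries, which should lack macrophage and granulocyte transcripts, are given below for comparison. They were not checked for mixed cells. At 1000 UMIs, C1qa was found in 38.5% of baseline B cells and in 57.1%, 80.0% and 72.3% of infarct B cells, against 22.9% of baseline granulocyte-like cells and 16.4%, 25.5% and 29.5% of infarct ones. The B cell values may therefore hold RNA of attached cells as well as free RNA, and the part of either in each difference was not tested.

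**Figure D2:**
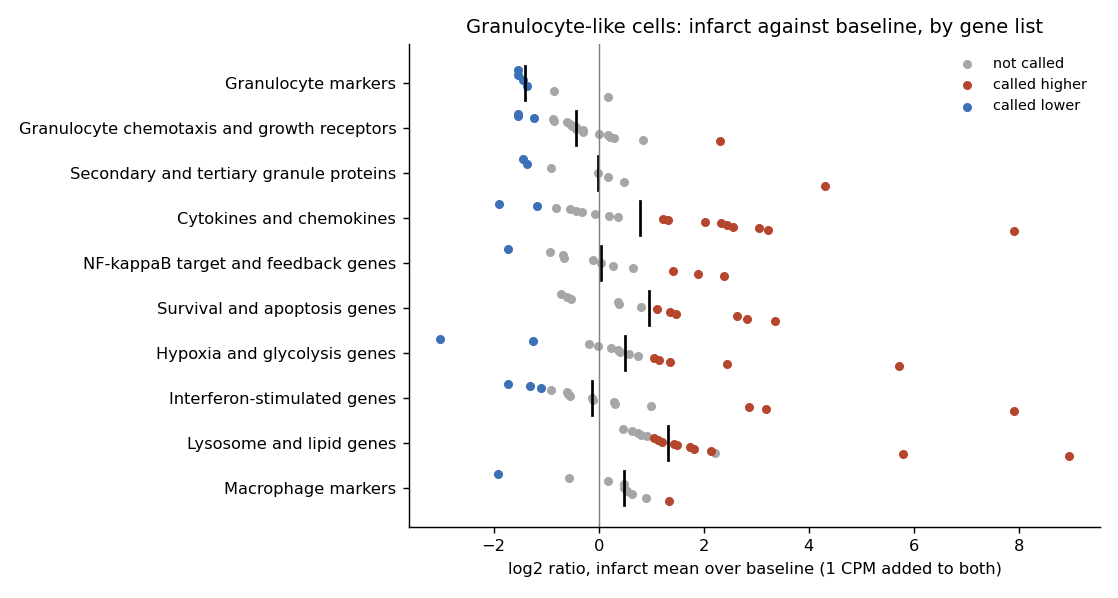
Log2 ratio of infarct to baseline CPM (x axis) for the genes of each list in summed granulocyte-like cells, with 1 point per tested gene, 1 row per list, a black bar at each list's median, red points called higher and blue points called lower. The medians lie at 0.96 for survival genes, 0.80 for cytokines and chemokines and -1.40 for granulocyte markers.

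Markers of granulocytes were in part lower in the infarct cells. Of 6 granulocyte markers tested outside the rule, 0 were called higher and 4 lower, beside 19.3% and 14.2% of all genes, with a median log2 ratio of -1.40 against 0.0020 for all genes. Csf3r stood at 1810 CPM at baseline and at 665, 577 and 639 CPM in the infarcts, 2.89-fold lower. Mxd1, the MYC antagonist, stood at 1399 CPM and at 443, 515 and 479 CPM. In B cells both were low, with infarct means of 42.3 ± 6.11 CPM for Csf3r and 30.8 ± 10.9 CPM for Mxd1. The proteases Mmp8 (237 CPM at baseline, 113, 130 and 18.1 CPM in the infarcts) and Mmp9 (963 CPM at baseline, 518, 322 and 274 CPM in the infarcts) were the others. In infarct B cells Mmp8 stood at 4.46 ± 0.17 and Mmp9 at 0.81 ± 0.76 CPM. In the 182 cells 3 of the 4 kept the call, and Mmp9 had a log2 ratio of -0.92. Among cells without a Siglecf UMI, a comparison chosen after seeing the data, 2 of the 4 kept it. There Mmp8 and Mmp9 were not called, at log2 ratios of -0.90 and -0.74. Of 7 proteins of secondary and tertiary granules, which overlap with this list, 1 was called higher (Chil3) and 2 lower (Mmp8 and Mmp9). The shares of all genes are those given above. The median log2 ratio was -0.02, and Chil3 entered only through its infarct level.

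Few receptors for chemotaxis and adhesion were called. Of 18 tested, 1 was higher and 3 lower, one of them Csf3r, beside 19.3% and 14.2% of all genes. The median log2 ratio was -0.44. Selplg, the adhesion ligand PSGL-1, went from 595 to 229, 177 and 208 CPM, and in B cells from 112 to 191 ± 14.6 CPM. Fpr1, the formyl peptide receptor, went from 91.9 to 52.6, 36.4 and 27.1 CPM, with 3.04 ± 1.22 CPM in infarct B cells. Ltb4r1, the leukotriene B4 receptor, was the gene that was higher, with 3 UMIs at baseline a ratio of 5.21 (interval 1.78 to 25.3), and 25.1 ± 17.8 CPM in infarct B cells. Ltb4r1 entered only through its infarct level, and Fpr1 only through baseline. All 3 lower receptors kept the call in the 182 cells. After thinning to 1000 UMIs 2 of the 3 kept it, Fpr1 turned to a log2 ratio of 0.018, and Ltb4r1 was not called.

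Chemokines and cytokines were more often higher than lower in the infarct cells. Of 18 tested, 9 were higher and 2 lower, beside 19.3% and 14.2% of all genes, with a median log2 ratio of 0.80, and 8 of the 9 kept the call in the 182 cells. Tnf, Vegfa, Cxcl1, Cxcl3 and Cxcl10 entered only through their infarct level, and the lower gene Tnfsf14 only through baseline. Ccl3, which encodes MIP-1α, stood at 198 CPM at baseline and at 1349, 686 and 1492 CPM in the infarcts, 5.92-fold higher. In B cells it went from 156 to 356 ± 156 CPM. Ccrl2, an atypical chemoattractant receptor, stood at 334 CPM at baseline and at 699, 1612 and 1757 CPM, 4.06-fold higher, and in B cells at 49.0 and 148 ± 63.0 CPM. Cxcl2, a ligand of CXCR2, stood at 1728 CPM and at 4594, 3551 and 4758 CPM, 2.49-fold higher, with 510 and 563 ± 197 CPM in B cells. In the 182 cells the log2 ratios of Ccl3, Ccrl2 and Cxcl2 were 3.50, 2.18 and 1.47. Tnf stood at 33.9 CPM and at 120, 104 and 298 CPM, and in infarct B cells at 37.9 ± 6.72 CPM. Vegfa, the angiogenic growth factor, stood at 19.4 CPM (4 UMIs) and at 93.9, 120 and 118 CPM, and in infarct B cells at 7.83 ± 9.10 CPM. Il1b, the most abundant cytokine of the list, stood at 12621 CPM at baseline and at 7175, 10179 and 8775 CPM, and did not pass the 2-fold rule. Ccl6 was lower, at 2062 CPM against 886, 390 and 383 CPM.

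Cxcl10, an interferon-induced chemokine, was at 0 UMIs in baseline cells and at 154, 146 and 422 CPM in the infarcts, at least 16.6-fold higher against a floor of 3 UMIs. It occurred in few cells, 9.73% ± 0.66 of the infarct cells. The share was similar in the deeper surrounding cells, 9.17% of the other infarct cells and 8.30% of infarct B cells. Its level went from 42.7 to 113 ± 30.4 CPM in the other cells. In B cells it went from 4.20 to 52.2 ± 66.0 CPM. Ccl4, which encodes MIP-1β, passed the rule at 518 CPM against 1251, 1622 and 780 CPM, but infarct B cells held as much of it, 1171 ± 665 CPM. Cxcl1 and Cxcl3, both neutrophil attractants, had 1 and 2 UMIs at baseline, and their ratios of 11.1 (interval 1.99 to 439) and 9.08 (2.51 to 75.0) are poorly bounded.

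**Figure D3:**
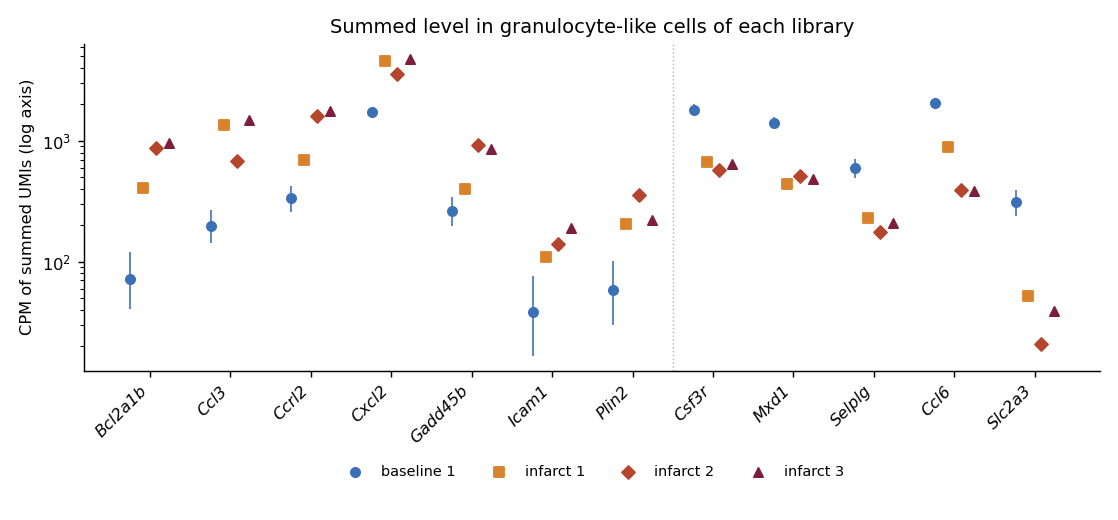
Summed level (CPM, log axis) of 7 genes called higher and 5 called lower (left and right of the dotted line) in granulocyte-like cells, with 1 point per library and a bar for the Poisson counting interval of baseline. For Ccl3, Ccrl2 and Bcl2a1b all 3 infarct points lie above the baseline point, and for Csf3r and Mxd1 all 3 lie below.

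The survival genes that were called were all higher. Of 12 tested, 6 were higher and 0 lower, beside 19.3% and 14.2% of all genes, with a median log2 ratio of 0.96, and all 6 kept the call in the 182 cells and after thinning. Bcl2a1a and Bcl2a1d entered only through their infarct level. Bcl2a1b, a member of the A1 family of anti-apoptotic BCL2 proteins, stood at 72.6 CPM at baseline and at 406, 879 and 964 CPM in the infarcts, 10.3-fold higher. It had a UMI in 12.9% of baseline and 63.7% ± 9.57 of infarct cells, or 7.14% and 37.3% ± 4.15 at 1000 UMIs. B cells, which also use this gene, went from 132 to 426 ± 57.6 CPM. Bcl2a1a went from 19.4 to 86.4, 140 and 202 CPM, and Bcl2a1d from 24.2 to 67.6, 198 and 202 CPM, while their B cell means in the infarcts were 16.8 ± 6.14 and 31.9 ± 11.3 CPM. These 3 genes are near-identical copies, so the split of reads between them is uncertain. Gadd45b, a stress-induced growth arrest gene, stood at 261 CPM and at 402, 915 and 853 CPM, and in infarct B cells at 131 ± 17.8 CPM. Cflar, an inhibitor of caspase-8, and the pro-apoptotic Bax were the others, at 2.17-fold and 2.58-fold, and Bax stood at 242 ± 41.8 CPM in infarct B cells against 187 ± 17.8 CPM in the granulocyte-like cells.

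Targets of NF-κB showed no common direction. Of 11 tested, 3 were higher and 1 lower, beside 19.3% and 14.2% of all genes, and the median log2 ratio was 0.04. Icam1 and Sod2 entered only through their infarct level, and Cd83 only through baseline. In the 182 cells the 3 higher genes kept the call. Icam1, the adhesion molecule, stood at 38.7 CPM at baseline and at 109, 140 and 190 CPM in the infarcts. Sod2 (mitochondrial superoxide dismutase) went from 29.0 to 165, 109 and 193 CPM, and Ier3 (an immediate early gene) from 160 to 548, 390 and 338 CPM. Cd83 was lower, at 111 CPM against 22.5, 52.0 and 24.1 CPM, and was not called in the 182 cells. The infarct level of Icam1 in B cells was 56.0 ± 19.2 CPM and that of Ier3 288 ± 27.6 CPM.

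Genes of hypoxia and glycolysis were divided. Of 14 tested, 5 were higher (Hilpda, Vegfa, Gapdh, Ldha and Ero1l) and 2 lower (Slc2a3 and Bnip3), beside 19.3% and 14.2% of all genes. The median log2 ratio was 0.49, and all 5 higher genes and 1 of the lower genes kept the call in the 182 cells. Among them, Hilpda and Vegfa entered only through their infarct level, and Slc2a3 only through baseline. Hilpda, a hypoxia-induced lipid droplet protein, had 1 UMI at baseline and stood at 229, 364 and 322 CPM in the infarcts, a ratio of 63.1 (interval 11.3 to 2491). Infarct B cells had 18.1 ± 6.88 CPM of it and the other infarct cells 29.0 CPM. Slc2a3, the glucose transporter GLUT3 of leukocytes, was lower, at 310 CPM against 52.6, 20.8 and 39.2 CPM, 8.25-fold. Hilpda thus stood far above its level in the surrounding cells, while Gapdh and Ldha, glycolytic enzymes that were also higher, stood at similar levels in B cells (933 ± 179 and 280 ± 88.2 CPM against 1263 and 356 CPM). Acadl, a mitochondrial fatty acid dehydrogenase named by its rank, had 1 UMI at baseline and 146, 125 and 154 CPM in the infarcts, a ratio of 29.3 (interval 5.25 to 1156). It also entered only through its infarct level.

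The called lysosome and lipid genes were all higher in the infarct cells, and they moved in the same way in B cells. Of 16 tested, 10 were higher and 0 lower, beside 19.3% and 14.2% of all genes, with a median log2 ratio of 1.32. However, 5 of the 10 (Ctsb, Ctsd, Cd63, Lgals3 and Gpnmb) lost the call in the 182 cells. Among the 10, Spp1 and Gpnmb entered only through their infarct level. Ctsd (cathepsin D) stood at 484 CPM at baseline and at 830, 2428 and 814 CPM, and in B cells at 116 and 2027 ± 171 CPM. Spp1, which encodes osteopontin, was at 0 at baseline and at 391, 941 and 157 CPM, at least 34.2-fold higher, while B cells went from 11.2 to 743 ± 178 CPM. Apoe from the macrophage list stood at 5633 CPM and at 6224, 26030 and 10662 CPM, and in B cells at 6274 and 28523 ± 10508 CPM. The levels of Spp1, Ctsd and Apoe in infarct B cells were thus above their means in the granulocyte-like cells. Gpnmb, a lysosomal glycoprotein of lipid-laden macrophages, was at 0 at baseline and had 1, 29 and 3 UMIs in the infarct libraries. Plin2, which coats lipid droplets, stood at 58.1 CPM and at 207, 354 and 220 CPM, against 102 and 288 ± 17.3 CPM in B cells.

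Other genes named by rank were of mixed kinds. Arg1, arginase 1, was at 0 at baseline and at 331, 10.4 and 45.2 CPM in the infarcts, with 158 ± 137 CPM in infarct B cells. Chil3, a chitinase-like protein of myeloid cells, had 2 UMIs at baseline and 361, 120 and 151 CPM in the infarcts, a ratio of 21.7 (interval 6.01 to 179), with 84.2 ± 37.3 CPM in infarct B cells. Churc1, Ebna1bp2 and Ddt had no UMI at baseline and were at least 5.52-, 5.46- and 4.44-fold higher, although their levels in B cells were alike in the baseline (72.8, 63.0 and 47.6 CPM) and the infarct libraries (83.0, 48.8 and 54.8 CPM). Each of these genes, Arg1 and Chil3 included, entered only through its infarct level, so its direction was fixed by the filter.

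Of the genes with the lowest ratios, 7 were at 0 in all infarct libraries, and these were the endothelial genes Adgrf5, Sparcl1, Ptprb and Aqp1, with Timp4, Adamts1 and 8430408G22Rik. All 7 entered only through baseline. They had 93 UMIs in baseline granulocyte-like cells, 91 of them in a single cell. That cell had 6800 UMIs, 84 of S100a8 and S100a9, and 130 of the 143 endothelial marker UMIs of all baseline granulocyte-like cells. In the 182 cells, which leave it out, all but Sparcl1 were at a log2 ratio of 0. The summed endothelial markers were 692 CPM at baseline and 26.3, 52.0 and 27.1 CPM in the infarcts, and their 1 tested gene, Fabp4, had a log2 ratio of -4.62 with that cell and -0.31 in the 182 cells. The remaining 3, Lyve1, Retnla and Cd163, are genes of resident macrophages, with 131, 121 and 189 CPM at baseline. B cells at baseline held 134, 280 and 197 CPM of them. These 3 genes also entered only through baseline. Of 9 macrophage markers 1 was called higher (Apoe) and 1 lower (Mrc1, 460 CPM against 52.6, 156 and 157 CPM), with a median log2 ratio of 0.48, and of 6 monocyte markers 0 were higher and 1 lower (F13a1, 431 CPM against 252, 46.8 and 24.1 CPM). Both counts stand beside 19.3% of all genes called higher and 14.2% called lower. The eosinophil, B cell and primary granule lists had 1 tested gene each, none called, and the cell cycle list had 1, the replication clamp Pcna, called higher at 19.4 CPM (4 UMIs) against 75.1, 36.4 and 57.3 CPM. Pcna entered only through its infarct level. No gene of the mast cell, T and NK cell, dendritic cell, fibroblast, erythroid or cardiomyocyte lists reached the level to be tested.

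Interferon-stimulated genes were divided, with 3 of 15 higher and 3 lower, beside 19.3% and 14.2% of all genes. The median log2 ratio was -0.12, and 2 of the higher and 3 of the lower genes kept the call in the 182 cells. Ifit1 and Ifit2, both with 1 or 2 UMIs at baseline, and Cxcl10 were higher, and all 3 entered only through their infarct level. Slfn4, a myeloid Schlafen gene, was lower at 431 CPM against 63.9, 218 and 105 CPM, and Oasl2 at 290 CPM against 101, 109 and 142 CPM. Infarct B cells held a mean of 18.5 CPM of Slfn4 and 76.3 ± 18.8 CPM of Oasl2. Ifitm1, an antiviral membrane protein, was called on its mean alone, since infarct replicate 1 lay next to baseline, at 1563 against 1631 CPM, and replicates 2 and 3 stood at 603 and 127 CPM, with 25.3 ± 35.9 CPM in infarct B cells.

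Cells with and without a Siglecf UMI were then compared within the infarct libraries, where the 3 hearts allow a test. There were 28 cells with and 34 without in infarct replicate 1, 25 and 23 in replicate 2, and 52 and 36 in replicate 3. Counts were summed per library and side and compared by edgeR's quasi-likelihood test with the library as a block. The p-values therefore measure how the difference between the sides varied over these 3 hearts, with that spread estimated in part from all genes. Differences in level between the hearts are taken out by the block. The cells with a Siglecf UMI were somewhat deeper in 2 of the libraries, with median UMIs of 2783.5 against 2165.5 in replicate 1, 3132 against 2132 in replicate 2 and 3007 against 3026.5 in replicate 3. Siglecf counted towards the rule, so a cell with a Siglecf UMI needed only 1 further gene of the 6 to enter. The rule genes were fitted but not tested for that reason.

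Few genes passed the threshold between the sides, all of them lower in cells with a Siglecf UMI. The test misses many small changes. In counts simulated from these sums it called 27 of 88 genes changed 2-fold and 75 of 79 changed 4-fold. Of 2112 genes tested, 0 were higher at an adjusted p of 0.01 (0%), with 38 higher at an unadjusted p under 0.05 and 0 higher by DESeq2. There were 5 lower genes (0.237%), with 110 lower at an unadjusted p under 0.05 and 4 lower by DESeq2's Wald test. All 5 were lower in 3 of 3 libraries.

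**Figure D4:**
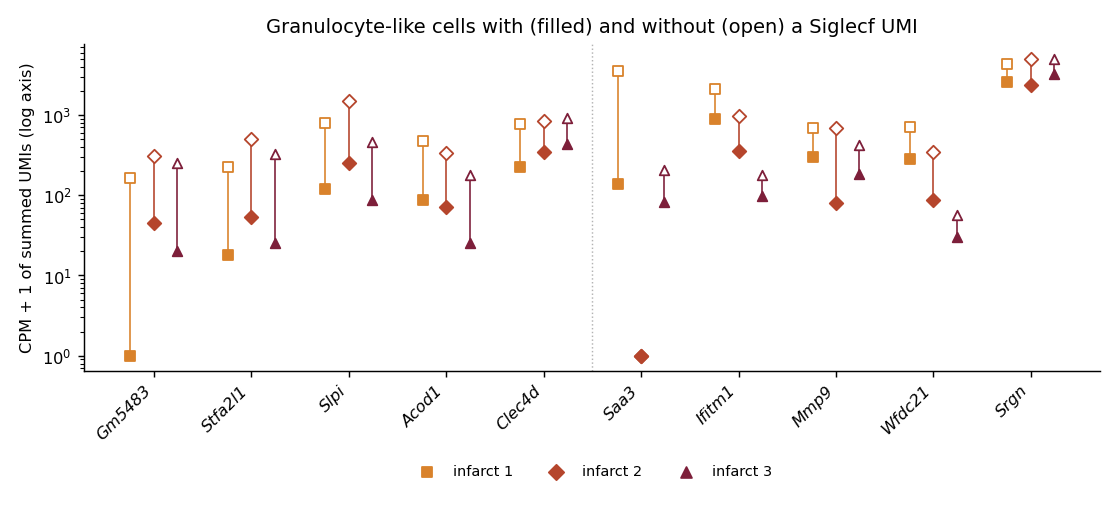
Summed level (CPM with 1 added, log axis) of the 5 called genes, left of the dotted line, and the next 5 by p in cells with (filled) and without (open) a Siglecf UMI, joined by a line within each infarct library. For Slpi the filled points lie at 119, 253 and 87.1 CPM and the open points at 801, 1508 and 455 CPM.

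Slpi, the secretory leukocyte protease inhibitor that blocks neutrophil elastase, stood at 119, 253 and 87.1 CPM in cells with a Siglecf UMI and at 801, 1508 and 455 CPM in those without. The sides did not overlap, and the log2 fold change was -2.64 ± 0.24 (SE, adjusted p = 4.29e-05, edgeR). Stfa2l1, a stefin A cysteine protease inhibitor, stood at 17.0, 52.3 and 24.2 CPM with and at 222, 502 and 327 CPM without, a log2 fold change of -3.57 ± 0.35 (adjusted p = 6.51e-05, edgeR). Gm5483, a near-identical member of that family, had a log2 fold change of -3.60 ± 0.46 (adjusted p = 0.000901, edgeR), and the reads of the pair cannot be assigned with certainty.

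Acod1, the itaconate-forming enzyme of activated myeloid cells, stood at 85.0, 69.7 and 24.2 CPM with and at 471, 335 and 176 CPM without a Siglecf UMI, a log2 fold change of -2.57 ± 0.32 (adjusted p = 0.000754, edgeR). Clec4d, a C-type lectin receptor for fungal and mycobacterial glycolipids, stood at 221, 340 and 436 CPM with and at 768, 850 and 910 CPM without, a log2 fold change of -1.44 ± 0.23 (adjusted p = 0.00873, edgeR). Every library without a Siglecf UMI lay above every library with one for both genes. In the 182-cell set, 0 genes passed at 0.01 and 9 at 0.05, over 953 genes tested, and after thinning to 1000 UMIs 0 of 533 passed. When cells on both sides had to meet the same entry rule, 1 gene passed, Stfa2l1, and with no library as a block 0 passed. Without infarct replicate 1, 0 genes passed, without replicate 2, 8, and without replicate 3, 2.

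The next genes by p did not pass the threshold. Ifitm1 and Mmp9 had log2 fold changes of -1.30 ± 0.23 and -1.74 ± 0.32 (adjusted p = 0.018 for each, edgeR) and were lower in 3 of 3 libraries. Saa3, an acute phase apolipoprotein, had the same adjusted p, but it was at 0 in infarct replicate 2, and its UMIs in cells without Siglecf were 527 in replicate 1 and 26 in replicate 3. Wfdc21 and Srgn, the granule proteoglycan serglycin, had adjusted p = 0.0375 and 0.0576 (edgeR). Lcn2, fixed as a granulocyte marker, had a log2 fold change of -1.02 ± 0.22 (adjusted p = 0.0615, edgeR) and was lower in 3 of 3 libraries. On the positive side the smallest adjusted p was that of Dusp6, a phosphatase of ERK, at 0.132.

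Retnlg did not divide the cells in one direction. Its summed level with and without a Siglecf UMI was 25.5 and 2060 CPM in infarct replicate 1 and 261 and 4613 CPM in replicate 2, but 261 and 55.9 CPM in replicate 3. Among the lists, Clec4d was the only gene past the threshold. None of 15 cytokines and chemokines passed (median log2 fold change -0.61), nor did any of 10 survival genes (-0.12) or 15 lysosome and lipid genes (0.23), beside -0.00013 over all genes tested. The genes that were higher in the infarct cells did not pass either. Bcl2a1b had a log2 fold change of 0.39 ± 0.31 (adjusted p = 0.870, edgeR), Ccrl2 of 0.68 ± 0.33 (0.694), Hilpda of 0.35 ± 0.31 (0.878) and Ccl3 of -0.88 ± 0.29 (0.357). A p that misses the threshold does not show equal levels. When the infarct cells without a Siglecf UMI were set alone against baseline, a comparison chosen after seeing the data, 612 genes were called higher, 511 of them among the 716, and 542 lower, 418 of them among the 526. Of the 6 survival genes 5 were called in it, of the 9 higher cytokines and chemokines 7, and of the 4 lower granulocyte markers 2.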

How the data were processed

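Cardiac cells were captured as droplet libraries, and the deposited files hold unnormalized UMI counts, produced by the authors in Cell Ranger on mm10 (version 3.0.1 in the submitters' processing notes, 3.1.0 in the matrix headers). A cell was kept at 500 to 40000 UMIs with more than 200 genes, which left 41533. This filter, as stated for the study, left more cells than the study describes. The members, gene lists and tests were chosen with earlier results of these data known. Monocytes had at least 2 Ly6c2 UMIs and no C1q UMI, and B cells a UMI in 2 of 4 B cell markers. Granulocyte-like cells were left out of both. UMI counts were summed per library over the selected cells and scaled to CPM without mitochondrial genes. Infarct was compared with baseline by level only. Cells with and without a Siglecf UMI were compared across the 3 infarct libraries with edgeR 4.0.16 (R 4.3.3), using TMM factors, the filterByExpr filter and a quasi-likelihood test that blocked on library, since the paired sums are of one heart. The threshold was 0.01 after Benjamini-Hochberg adjustment. DESeq2 1.42.0 was an alternative. The scripts were tested on simulated data (Python 3.11.15, numpy 2.4.6, scipy 1.17.1, pandas 2.3.3, matplotlib 3.10.9). Genes were named from the rule, the 22 lists, the 15 highest ratios to other cells, the 10 highest and lowest called ratios to baseline (sex-linked and mitochondrial genes unranked), and the called genes of the Siglecf contrast, filled to 10 by p. Genes named from the positive side of that contrast were picked after their values were seen. One gene of the receptor list is not reported here.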

Additional observations from a re-analysis of the deposited data

How the results depend on the processing

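The share of granulocyte-like cells was 0.518% at baseline and 0.402% in the infarcts with at least 50 S100a8 and S100a9 UMIs and 3 genes, 0.498% at baseline without cells of 3 or more C1q UMIs, and 0.609% at baseline and 0.392% in the infarcts at 1000 UMIs per cell. Leaving out each infarct library gave 0.521% to 0.733%. The Siglecf share in the infarcts was 33.3% at 1000 UMIs and 48.6% to 55.6% without 1 library. Genes higher and lower numbered 1800 and 1190 from 10 CPM, 2116 and 2008 without a filter, and 704 to 798 and 530 to 596 without 1 infarct library. In the Siglecf contrast 1 gene was higher without a filter on low counts. Lower genes numbered 20 in that setting, 8 with DESeq2 size factors, 8 with the baseline library added, 9 at an adjusted p of 0.05, and 1 when both sides met the same entry rule. They numbered 0 at 1000 UMIs, 0 without the C1q cells, 0 in the 182 cells (added after seeing the data) and 0 with no library as a block. Leaving out 1 library gave 0 to 8. All 5 lower genes kept their direction wherever they were fitted, with adjusted p from 1.49e-15 to 0.642. Fpr1 reversed at 1000 UMIs, to a log2 ratio of 0.018. Of the values recomputed for ranked genes and called list genes of the baseline comparison 862 kept and 117 lost the call, and of those of the Siglecf contrast 70 kept their side, 17 passed the threshold newly and 30 no longer passed it. The causes were not tested. Between 48 and 88 cells a library, at a median of 2210 to 3007 UMIs, limit what low genes can show. No paired analysis of baseline against infarct was possible, because the baseline was 1 pool of 3 control hearts and each infarct library came from another heart.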

Other observations

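Transcripts of primary granule proteins, which neutrophils make as promyelocytes, were found in a few infarct cells. Elane was found in 3 cells and Mpo in 2 cells of infarct replicate 1, and in no other library. Prtn3, proteinase 3, stood at 473 CPM in infarct replicate 1, where 6 cells held it, and it had a UMI in 7.55% of the other infarct cells, so its presence is not particular to granulocyte-like cells. The summed monocyte markers were also highest in infarct replicate 1, at 2656 CPM against 457 and 949 CPM in replicates 2 and 3 and 1050 CPM at baseline.

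Siglecf was not restricted to granulocyte-like cells. Another 229 cells carried a Siglecf UMI, 60 of them at baseline and 62, 54 and 53 in the infarct libraries, and 209 of them had no S100a8 or S100a9 UMI. Siglecf was found in 0.543% of the other infarct cells. None of the cells with a Siglecf UMI carried 2 of Epx, Prg2, Ccr3, Il5ra and Ear6.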
